A study of Mus musculus with 12 samples.

Results

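The axon guidance ligands and receptors were followed as 65 genes out of 18193 genes measured on the arrays. They are the semaphorins, plexins, neuropilins 1 and 2, ephrins, Eph receptors, Slits, Robos, netrins and Dcc. A rule on gene symbols picked them, and it was set with earlier results of these data known. Of the 65 genes, 20 are semaphorins, 12 fall under the plexins and neuropilins, 8 are ephrins, 13 are Eph receptors, 7 are Slits or Robos, and 5 are netrins or Dcc. The symbol rule also took in Plxna4os1, a transcript from the strand opposite Plxna4, which is not a receptor. Where a gene had several probe sets, the one with the highest mean over the 12 tumors stood for it. Together the 65 genes have 146 probe sets. Values are log2 signals, so a difference of 1 is a doubling, and differences are always pancreatic minus pituitary tumors.

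Guidance cues tell growing axons and migrating cells where to go. Semaphorins signal through plexins, with neuropilins as co-receptors for the secreted semaphorins, and Slits signal through Robos and netrins through Dcc and related receptors. Ephrins sit in the membrane of 1 cell and bind Eph receptor tyrosine kinases on its neighbor, so that both cells can respond. The same families act outside the nervous system, among others in blood vessels, in epithelia and in pancreatic islets, where Eph and ephrin contacts between beta cells take part in the control of insulin release.

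RNA was taken from 9 pancreatic and 3 pituitary tumors of untreated LSL-MYCN;hGFAP-Cre mice and measured on 1 Affymetrix mouse array per tumor. In these mice, Cre under the human GFAP promoter removes a stop cassette, so that MYCN and a luciferase reporter are expressed in GFAP-positive cells. All tumors share this genotype on a mixed genetic background, and ages of the single tumors were not given in the sources used here. Tumors are numbered 1 to 12 as in the labels, which name the brain as the tissue of tumors 6, 7 and 8, while the study's text places the head tumors at the pituitary gland. The labels state that a mouse can carry tumors at both sites and do not say which tumors share a mouse, so the tests treated all tumors as independent, and p-values measure the spread between these samples. No normal pancreas or pituitary was analysed here.

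The marker genes fitted the site labels. Of 15 measured anterior pituitary markers, 11 were higher in the pituitary tumors, and of 12 measured endocrine pancreas markers, 7 were higher in the pancreatic tumors (limma, adjusted p under 0.05). The pituitary markers had mean signals of 8.22 to 9.92 in tumors 6 to 8 and of 5.03 to 5.36 in the rest. Pituitary tumors 6 and 8 also carried transcripts of brain cells. The mean over 9 astrocyte markers was 10.93 in tumor 6, 7.19 in tumor 7 and 10.74 in tumor 8, against 5.59 to 7.43 in the pancreatic tumors. The mean over 9 neuron markers was 9.53, 6.69 and 9.47 in the same order, against 5.21 to 7.41. The mean over 8 oligodendrocyte markers was 8.35, 5.17 and 7.75, against 5.10 to 5.42. In tumor 7 the markers Mog and Olig2 of this list were both at 2.80, while Mbp and Cnp were at 9.26 and 9.17. The pancreatic tumors ranged from 6.01 to 9.84 for Mbp and from 7.39 to 9.89 for Cnp. On all 3 lists tumors 6 and 8 lay above the range of the pancreatic tumors and tumor 7 within it, for the astrocyte list only because of pancreatic tumor 2, since the other 8 were at 5.59 to 6.43. Tumor 7 nevertheless held some of these transcripts above every pancreatic tumor. The astrocyte markers Slc1a2 and Fabp7 were at 9.26 and 7.74 in it, against at most 7.14 and 6.25 in the pancreatic tumors, and the neuron marker Slc17a6 was at 8.53 against at most 5.41. Pancreatic tumor 2 stood apart from the other pancreatic tumors, with Pearson's r across probe sets of 0.803 to 0.902 to them and an endocrine pancreas marker mean of 8.23, against 9.80 to 11.44. Array medians, used here as a mark of low signal, were 5.45 to 5.69.

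To ask which guidance genes distinguish the sites, the sites were tested with limma on 45037 probe sets, with p-values adjusted over all of them. Of the 65 genes, 5 were higher in the pancreatic tumors, which is 7.69% beside 1.63% of all genes, and 6 were higher in the pituitary tumors, which is 9.23% beside 4.29% of all genes. The other 54 did not pass the threshold. Sema4a, Epha2, Efnb1, Plxnb2 and Robo3 were higher in the pancreatic tumors, and Sema5a, Plxnc1, Slit2, Epha5, Ephb1 and Epha7 in the pituitary tumors. Differences of more than 1 in either direction were seen in 18 genes (27.7%, beside 15.7% of all genes), and the median size of a difference was 0.53, beside 0.33 over all genes. The median signed difference was -0.06 over the guidance genes and 0.04 over all genes. In 8 genes all pancreatic tumors lay above all pituitary tumors (12.3%, beside 4.21% of all genes), and in 4 genes the reverse was true (6.15%, beside 5.21%). Ligands and receptors were both represented, with 2 of 35 ligands called in each direction, and 3 of 29 receptors higher in pancreatic and 4 higher in pituitary tumors. In these bulk samples, fewer cells of a type and less RNA per cell cannot be told apart.

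**Figure D1:**
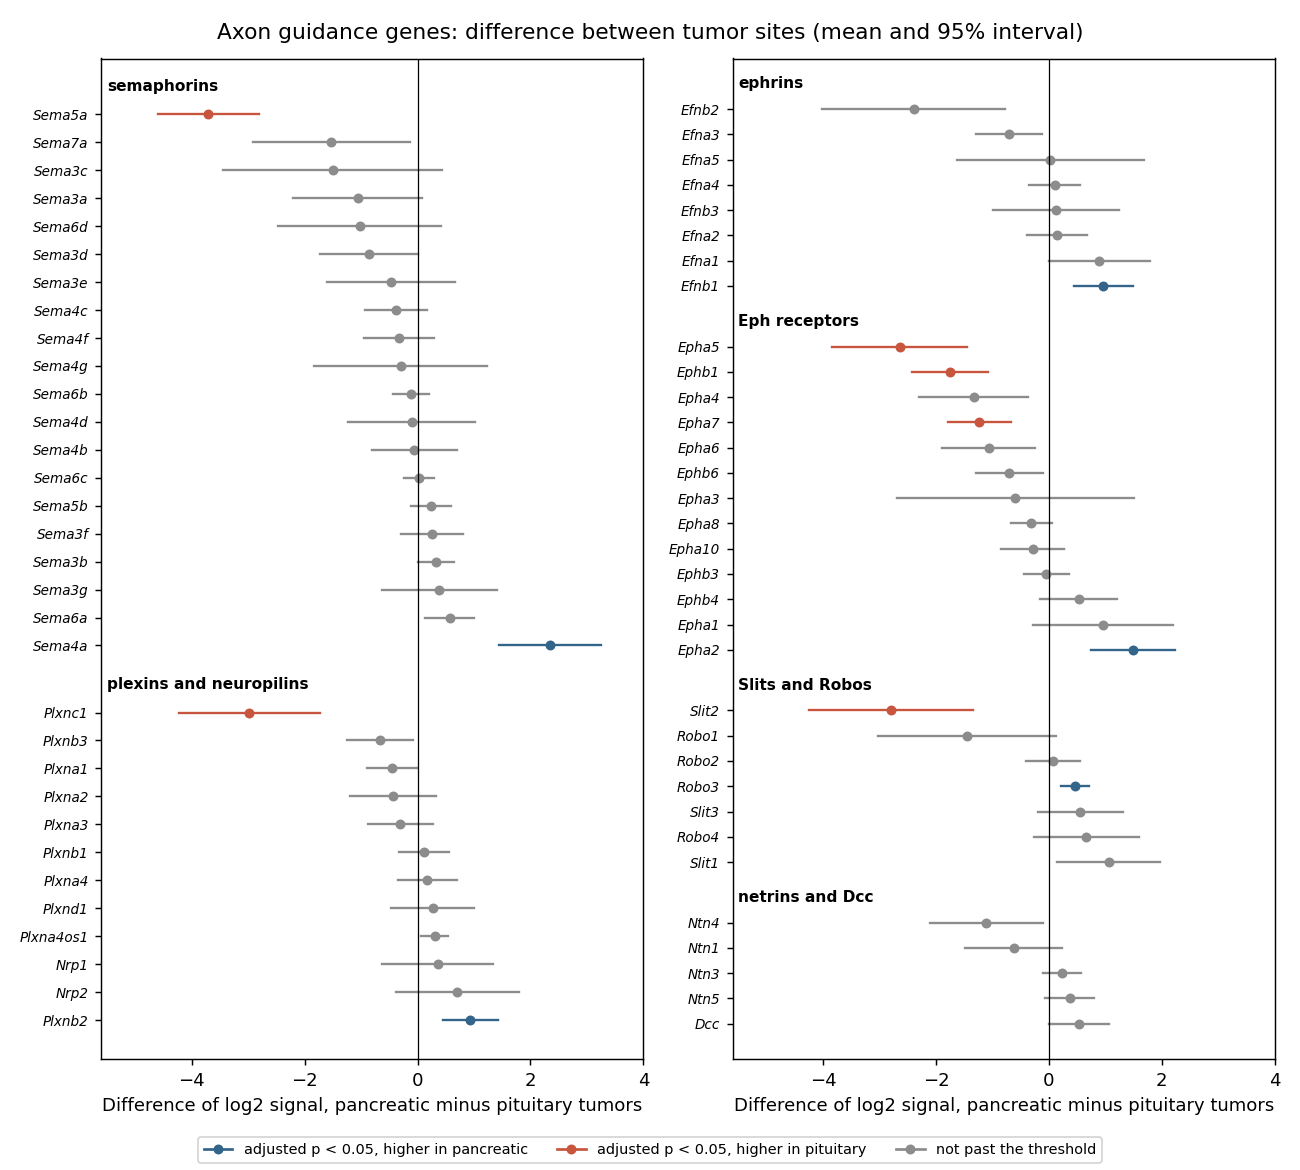
Difference of the log2 signal between the sites for each of the 65 genes (x axis, pancreatic minus pituitary; points are differences of means, lines are 95% intervals), grouped by family. Blue genes passed the threshold in the pancreatic direction, red genes in the pituitary direction and grey genes did not, with Sema5a at -3.70 and Sema4a at 2.35 as the extremes.

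Promoter sequences were examined because these tumors are driven by MYCN, which binds the E-box CACGTG. RefSeq promoter windows (GRCm38.p6, 250 bases before to 50 bases after a start) were given for 55 of the 65 genes, with 71 windows in all. CACGTG, which reads the same on both strands, was found in 5 of the 71 windows (7.04%), beside 7.15% of the windows of all genes, and in 0 windows of the 11 genes past the threshold. GGGCGG, a GC box, was found on either strand in 51 windows (71.8%), beside 35.7% of the windows of all genes and 46.2% of those of protein-coding genes. The median GC content of the windows was 64% for the guidance genes, 52.7% for all genes and 56.3% for protein-coding genes. By direction, the GC box was found in 4 of 5 genes higher in pancreatic tumors and in 5 of 6 genes higher in pituitary tumors. The 250 bases before the start are shown for the ligand and the receptor with the largest differences, Sema5a and Plxnc1, both higher in pituitary tumors, and for the receptor higher in pancreatic tumors with the largest difference, Epha2. Each is written 5′ to 3′ on the strand of the gene, with GGGCGG or its reverse complement CCGCCC in capitals. Sema5a lies on the plus strand at chr15:32244563-32244812 and holds 5 matches, in part overlapping, Plxnc1 on the minus strand at chr10:94944846-94945095 with 4, and Epha2 on the plus strand at chr4:141300971-141301220 with 1. A match describes these letters and is not evidence that a factor binds there.
Sema5a: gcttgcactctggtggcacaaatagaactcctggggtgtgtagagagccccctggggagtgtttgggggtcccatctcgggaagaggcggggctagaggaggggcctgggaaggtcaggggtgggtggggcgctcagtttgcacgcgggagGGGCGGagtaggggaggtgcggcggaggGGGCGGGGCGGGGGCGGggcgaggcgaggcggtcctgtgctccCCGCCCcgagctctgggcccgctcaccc
Plxnc1: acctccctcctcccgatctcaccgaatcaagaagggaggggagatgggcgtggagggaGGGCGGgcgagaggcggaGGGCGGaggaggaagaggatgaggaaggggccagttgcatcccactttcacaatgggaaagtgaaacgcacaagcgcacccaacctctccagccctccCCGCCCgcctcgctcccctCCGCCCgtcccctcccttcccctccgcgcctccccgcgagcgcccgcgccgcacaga
Epha2: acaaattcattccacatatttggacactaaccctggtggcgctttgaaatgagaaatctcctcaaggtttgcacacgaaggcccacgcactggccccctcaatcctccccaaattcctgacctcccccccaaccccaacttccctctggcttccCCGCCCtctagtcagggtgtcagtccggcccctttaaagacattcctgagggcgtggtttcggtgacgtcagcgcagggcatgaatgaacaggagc

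Among the semaphorins, Sema5a was higher in pituitary tumors, Sema4a was higher in pancreatic tumors, and 18 of 20 did not pass. Sema5a, a membrane-bound semaphorin with thrombospondin repeats, had signals of 8.20, 9.07 and 8.06 in pituitary tumors 6, 7 and 8. In the pancreatic tumors it ranged from 3.46 to 5.70 with a median of 4.66, so the sites did not overlap, and it was above the array median in 1 of 9. The means were 8.44 ± 0.54 (SD, n = 3) and 4.74 ± 0.68 (SD, n = 9), a 13.0-fold difference (log2 difference -3.70, standard error 0.41, limma adjusted p = 0.000236). Tumor 7, the pituitary tumor with the lowest glial and neuronal marker means, was the highest of the 12. With tumor 7 as the only pituitary tumor the difference was -4.33. A second Sema5a probe set gave 6.78, 8.18 and 6.80 against 3.50 to 5.27, again with tumor 7 highest (adjusted p = 0.000442). Of its 4 probe sets, 2 passed. The others differed by -0.62 and 0.28 (limma adjusted p = 0.0692 and 0.441) and were below the array median in all tumors.

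Sema4a, a membrane-bound semaphorin known from immune cells and the retina, showed the opposite pattern. Its signals were 8.11 to 9.60 with a median of 8.68 in the pancreatic tumors and 7.24, 5.30 and 6.82 in pituitary tumors 6, 7 and 8. The sites did not overlap, and tumor 7 was the lowest of all. The difference was 2.35, or 5.10-fold (standard error 0.42, limma adjusted p = 0.00746). Its other probe set differed by 2.32 (adjusted p = 0.00933). Sema5a and Sema4a kept their calls in all 24 other settings tried, each left-out tumor included, but the Sema5a difference was -1.81 when its 4 probe sets were averaged.

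The secreted class 3 semaphorins showed no call in either direction by limma among 7 genes (1 at an unadjusted p under 0.05). Sema3c, which guides neural crest cells and axons through neuropilins, was the most variable guidance gene of the pancreatic tumors, with 4.72 to 9.47 and a median of 6.28. Its pituitary signals were 8.02, 7.95 and 9.04, inside that range (difference -1.50, 95% interval -3.44 to 0.44, adjusted p = 0.383). Of the membrane-bound class 6, Sema6d had 9.73, 7.63 and 10.59 in pituitary tumors 6, 7 and 8 and 7.19 to 9.67 in the pancreatic tumors (difference -1.03, adjusted p = 0.423). Sema7a, which is anchored by a lipid and binds plexin C1, had 8.78, 6.38 and 9.26 in the pituitary tumors against a pancreatic median of 6.47 (difference -1.53, adjusted p = 0.209). Both were lower in tumor 7 than in tumors 6 and 8. Without tumor 7, Sema7a passed the threshold (limma adjusted p = 0.0372), and the share of all genes called higher in pituitary tumors rose from 4.29% to 5.45%.

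Among the plexins and neuropilins, the receptors of the semaphorins, Plxnc1 was higher in pituitary tumors and Plxnb2 in pancreatic tumors. Plxnc1 had 9.61, 5.63 and 8.15 in pituitary tumors 6, 7 and 8, and 4.29 to 5.09 with a median of 4.95 in the pancreatic tumors, which were all below their array median. The sites did not overlap, but tumor 7 lay only slightly above the pancreatic tumors. The difference was -2.98, or 7.89-fold (standard error 0.58, limma adjusted p = 0.0125), and it was -0.81 with tumor 7 as the only pituitary tumor. The call was lost without pituitary tumor 6 or 8 (adjusted p up to 0.0767), the tumors with high astrocyte and neuron markers, whose part in the result was not tested. Of the 6 Plxnc1 probe sets, 1 passed.

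Plxnb2, a receptor of class 4 semaphorins, had 9.94 to 10.68 with a median of 10.21 in the pancreatic tumors and 8.63, 9.82 and 9.55 in the pituitary tumors. The sites were separate, with tumor 7 closest to the pancreatic tumors. The difference was 0.94 (standard error 0.22, limma adjusted p = 0.0352). The call was lost on leaving out any of pancreatic tumors 1, 4, 9, 10, 11 and 12 or pituitary tumors 6 and 8 (adjusted p up to 0.181). The neuropilins did not pass. Nrp1 and Nrp2, which also serve as co-receptors for vascular endothelial growth factors, differed by 0.36 (95% interval -0.63 to 1.34) and 0.71 (95% interval -0.38 to 1.79). Of the 4 class A plexins 0 passed by limma, with 1 at an unadjusted p under 0.05, and all 4 were above the array median in every tumor.

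**Figure D2:**
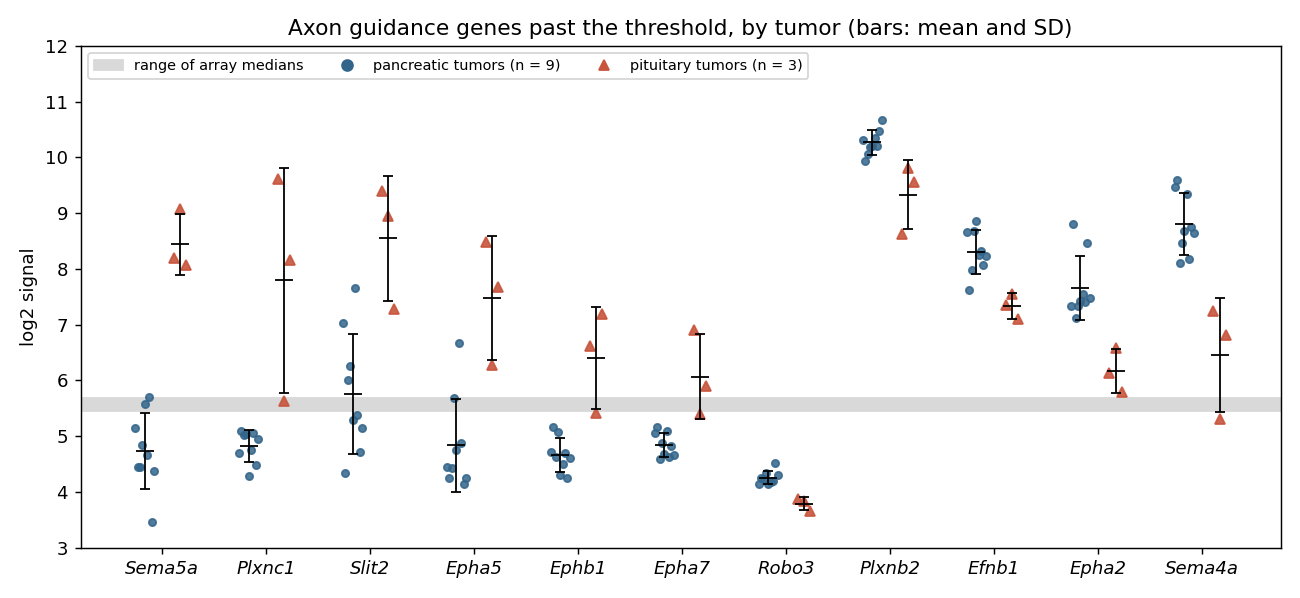
Log2 signal (y axis) of the 11 guidance genes past the threshold in each of 9 pancreatic (blue circles) and 3 pituitary tumors (red triangles), with mean and SD as black bars and the range of array medians (5.45 to 5.69) in grey. Sema5a and Sema4a separate the sites by wide margins, Slit2 and Epha5 overlap, and Robo3 lies below the grey band in all tumors.

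Of the 8 ephrins, Efnb1 was higher in pancreatic tumors and 0 were higher in pituitary tumors by limma (2 at an unadjusted p under 0.05). Efnb1, a transmembrane ephrin of the B class, had 7.62 to 8.85 with a median of 8.25 in the pancreatic tumors and 7.35, 7.56 and 7.10 in the pituitary tumors. The sites did not overlap, though pancreatic tumor 2 at 7.62 was close to pituitary tumor 7. The difference was 0.96, or 1.95-fold (standard error 0.24, limma adjusted p = 0.0395). Its 2 other probe sets differed in the same direction without passing (adjusted p = 0.0621 and 0.0826). The call was lost without any of pancreatic tumors 1, 4, 9, 10, 11 and 12 or pituitary tumors 6, 7 and 8 (adjusted p up to 0.201).

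Efnb2, the ephrin of arteries and of many neurons, had the largest difference of the family but varied within the pancreatic tumors. It was 10.49, 11.17 and 9.09 in pituitary tumors 6, 7 and 8 and 6.17 to 9.83 with a median of 7.33 in the pancreatic tumors, of which tumor 5 exceeded pituitary tumor 8. The difference was -2.40 (95% interval -4.02 to -0.77, limma adjusted p = 0.0951). A second Efnb2 probe set had 8.60, 9.13 and 7.08 in the pituitary tumors against 4.44 to 7.06, with no overlap, and passed (difference -2.50, adjusted p = 0.0289). Efna5, an ephrin of the A class held in the membrane by a lipid anchor and found on beta cells, was 6.48 to 10.80 in the pancreatic tumors and 8.72, 9.61 and 8.88 in the pituitary tumors. Its difference was 0.02 with a 95% interval of -1.64 to 1.69, which holds differences of more than 1 in both directions.

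The Eph receptors held 4 of the 11 calls. Epha5, Ephb1 and Epha7 were higher in pituitary tumors, Epha2 was higher in pancreatic tumors, and 10 of 13 members had a negative difference. Epha5, a receptor of A-class ephrins best known from the brain, was 8.48, 6.28 and 7.68 in pituitary tumors 6, 7 and 8 and 4.13 to 6.67 with a median of 4.46 in the pancreatic tumors. The sites overlapped, since pancreatic tumor 9 at 6.67 exceeded pituitary tumor 7. The difference was -2.64, or 6.25-fold (standard error 0.55, limma adjusted p = 0.0188), and 3 of its 4 probe sets passed. Ephb1, a receptor of B-class ephrins that steers retinal axons at the optic chiasm, was 6.61, 5.41 and 7.20 against 4.24 to 5.16 with a median of 4.62, and did not overlap. Its difference was -1.75 (standard error 0.31, adjusted p = 0.00759). In both genes tumor 7 was the lowest pituitary tumor, at or near the pancreatic range. The Epha5 call was lost without pituitary tumor 6 or 8 (adjusted p up to 0.133) and the Ephb1 call without tumor 6 (adjusted p = 0.0558).

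Epha7, a further receptor of A-class ephrins, was called by all of its 4 probe sets. The probe set that stood for the gene had 6.90, 5.41 and 5.91 in pituitary tumors 6, 7 and 8 and 4.59 to 5.17 with a median of 4.82 in the pancreatic tumors (difference -1.23, standard error 0.25, adjusted p = 0.0178). The sites did not overlap, and the pancreatic tumors were all below their array median. With this probe set the call was lost without pituitary tumor 6 or 8 (adjusted p up to 0.0765). Another Epha7 probe set had 8.22, 9.24 and 8.35 in the pituitary tumors and 3.06 to 4.83 in the pancreatic tumors. Here tumor 7 was the highest of all 12 tumors, and the difference was -4.92, or 30.4-fold (standard error 0.36, limma adjusted p = 7.78e-06).

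Epha2, the Eph receptor most often seen in epithelia, was 7.11 to 8.81 with a median of 7.43 in the pancreatic tumors and 6.14, 6.59 and 5.79 in the pituitary tumors. The sites did not overlap, and pancreatic tumors 2 and 11 were the highest, at 8.81 and 8.46. The difference was 1.48, or 2.80-fold (standard error 0.34, limma adjusted p = 0.0293), and the call was lost without pituitary tumor 6 or 8 (adjusted p up to 0.168). Epha4, which binds ephrins of both classes and was chosen after its values were seen, was 8.05, 5.86 and 6.02 in the pituitary tumors and 4.41 to 6.25 in the pancreatic tumors (difference -1.33, adjusted p = 0.119). Of its 4 other probe sets, 2 passed, with differences of -3.45 (adjusted p = 0.00481) and -2.43 (adjusted p = 0.00779). Pancreatic tumor 9 was the highest pancreatic tumor for Epha4 as it was for Epha5.

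Among the Slits, which repel axons, and the Robos, their receptors, Slit2 was higher in pituitary tumors and Robo3 in pancreatic tumors. Slit2 was 9.40, 8.96 and 7.29 in pituitary tumors 6, 7 and 8 and 4.35 to 7.65 with a median of 5.38 in the pancreatic tumors. Pancreatic tumor 9 at 7.65 exceeded pituitary tumor 8, so the sites overlapped, and tumor 7 was close to tumor 6. The difference was -2.79, or 6.93-fold (standard error 0.66, limma adjusted p = 0.0343). The call was lost without any of pancreatic tumors 3, 4, 10, 11 and 12 or pituitary tumors 6 and 7 (adjusted p up to 0.193), and 1 of its 3 probe sets passed. Its receptor Robo1 was 8.54, 6.81 and 7.75 in the pituitary tumors and 4.97 to 8.56 in the pancreatic tumors (difference -1.45, 95% interval -3.02 to 0.12, adjusted p = 0.297).

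Robo3, a divergent Robo that controls the crossing of commissural axons, was 4.14 to 4.51 with a median of 4.24 in the pancreatic tumors and 3.87, 3.85 and 3.66 in the pituitary tumors. The sites did not overlap, but every tumor was below its array median. The difference was 0.46 (standard error 0.11, limma adjusted p = 0.0371), and the call was lost after quantile normalization or median centring and without any of pancreatic tumors 3, 4, 9, 10 and 12 or the pituitary tumors (adjusted p up to 0.196). Of the 65 genes, 6 were below the array median in all tumors, namely Efna4, Ephb6, Ntn3, Plxna4os1, Robo2 and Robo3, and 29 were above it in all tumors.

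Of the netrins and Dcc, 0 passed in either direction by limma with the chosen probe sets (0 and 1 at an unadjusted p under 0.05). Ntn4, a netrin of basement membranes, had the largest difference, with 6.33, 6.21 and 8.19 in pituitary tumors 6, 7 and 8 and 4.74 to 6.83 in the pancreatic tumors. Tumor 8 alone lay above the pancreatic range, and the difference was -1.11 (95% interval -2.11 to -0.11, adjusted p = 0.206). The result for Dcc, the netrin receptor, depended on the probe set, and it is given here after its values were seen. The chosen probe set was 5.23, 5.30 and 5.11 in the pituitary tumors and 5.27 to 6.29 in the pancreatic tumors (difference 0.53, adjusted p = 0.261).

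The 2 other Dcc probe sets gave the opposite direction and separated the sites. On 1 of them the pituitary tumors had 8.14, 9.17 and 5.96 and the pancreatic tumors 2.79 to 3.56 with a median of 3.06 (difference -4.67, standard error 0.47, limma adjusted p = 0.000116). On the other they had 7.92, 8.59 and 5.83, against 3.29 to 4.45 with a median of 3.73 (difference -3.66, standard error 0.44, adjusted p = 0.000494). In both, tumor 7 was highest, all pituitary tumors were above the array median and all pancreatic tumors below it. Had the mean of both group means picked the probe set, in place of the mean over 12 tumors, the last of these would have stood for Dcc.

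Over all 146 probe sets of the guidance genes, 7 were higher in pancreatic tumors (4.79%, beside 1.18% of all probe sets) and 19 in pituitary tumors (13.0%, beside 3.45%). In 17 genes at least 1 probe set passed, and no gene had probe sets called in both directions. When the probe set with the higher group mean stood for each gene, a rule added after the data were seen, 5 genes were higher in pancreatic tumors (1.67% of all genes under that rule) and 8 in pituitary tumors (4.75%), with Dcc and Epha4 gained. When all probe sets of a gene were averaged, 4 (2.22%) and 9 (5.04%) were called, with Dcc, Efnb2 and Epha4 gained and Robo3 lost. With arrays weighted by their quality, 5 genes were higher in pancreatic tumors (5.28% of all genes) and 13 in pituitary tumors (8.77%).

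**Figure D3:**
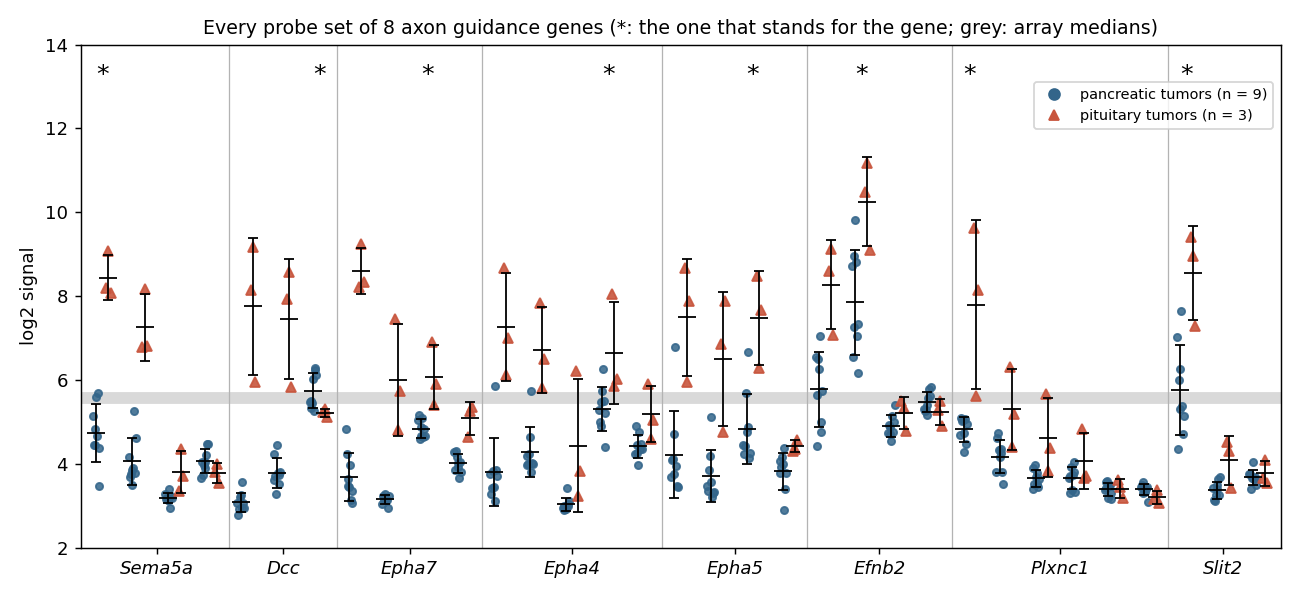
Log2 signal (y axis) on every probe set of 8 genes in 9 pancreatic (blue circles) and 3 pituitary tumors (red triangles), with mean and SD as black bars, array medians in grey and an asterisk over the probe set that stands for the gene. For Dcc and Epha7 the probe sets with the largest separation, with pituitary signals up to 9.17 and 9.24, were not the ones that stood for the gene.

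Known ligand and receptor partners were set side by side, since a cue needs its receptor to act. Of 20 pairs with both partners measured, 14 had neither partner called, 5 had 1, and 1 had both. That pair was Efnb1 and Ephb1, with the ligand higher in pancreatic tumors (0.96) and the receptor higher in pituitary tumors (-1.75). Each ligand was paired with only 1 receptor, so the counts depend on the list. They also rest on the chosen probe sets, and Dcc, Epha4 and Efnb2 were called as higher in pituitary tumors on others. Efnb2, also of the B class, was paired with Ephb4 and differed in the direction of Ephb1 (-2.40, limma adjusted p = 0.0951). The called genes Sema4a, Plxnb2, Epha7 and Robo3 were in no pair. Of these, Plxnb2 is a receptor of class 4 semaphorins, the class of Sema4a, and both were higher in pancreatic tumors (0.94 and 2.35). In the pairs with 1 call, Epha2 was higher in pancreatic tumors with its ligand Efna1 at 0.89 (adjusted p = 0.254), and Epha5 higher in pituitary tumors with Efna2 at 0.15 (adjusted p = 0.779). Plxnc1 and its ligand Sema7a had -2.98 and -1.53, Slit2 and Robo1 -2.79 and -1.45, and Sema5a and Plxna3 -3.70 and -0.31. In these 5 pairs the other partner did not pass the threshold.

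Guidance genes of other families were counted from a list of 21, all measured, which was also chosen with earlier results of these data known. Of these, 1 was higher in pancreatic tumors (4.76%) and 5 were higher in pituitary tumors (23.8%), beside the 1.63% and 4.29% of all genes. Nrcam, a cell adhesion molecule of axons and their nodes, was 10.17, 6.71 and 9.83 in pituitary tumors 6, 7 and 8 and 3.22 to 4.01 in the pancreatic tumors (difference -5.22, limma adjusted p = 0.00015). The adhesion molecules Cntn1 and Chl1 differed by -5.03 (adjusted p = 0.0181) and -4.42 (adjusted p = 0.00549). Flrt2 and Flrt3, which bind Unc5 receptors and latrophilins, differed by -2.70 and -2.40. Tumor 7 was the lowest of the pituitary tumors for all 5. Met, the receptor of hepatocyte growth factor, was 6.60 to 9.99 in the pancreatic and 5.55, 6.56 and 4.82 in the pituitary tumors (difference 2.66, adjusted p = 0.0204).

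Of 33 measured cytoplasmic effectors of guidance, 4 were higher in pituitary tumors (12.1%) and 0 in pancreatic tumors by limma (0 at an unadjusted p under 0.05). They were Srgap3, which acts below Robos (difference -3.26, adjusted p = 0.00502), the collapsin response mediators Dpysl4 (-2.15, adjusted p = 0.00311) and Dpysl3 (-1.37, adjusted p = 0.0468), and the kinase Cdk5 (-1.03, adjusted p = 0.0203). Dpysl3 lost its call in 10 of 12 settings that left out 1 tumor (adjusted p up to 0.196), Cdk5 without pituitary tumor 6 or 7 (up to 0.11), Flrt3 without 8 of the tumors (up to 0.226), and Cntn1 and Met without pituitary tumor 6 or 8 (up to 0.104 and 0.133). Nrcam, Chl1, Flrt2, Srgap3 and Dpysl4 kept theirs in all 12, but these settings never left out both pituitary tumors 6 and 8. Chl1 was 9.97, 5.42 and 10.21 in tumors 6, 7 and 8, in tumor 7 below its array median of 5.53.

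Within the 3 pituitary tumors the guidance genes varied more than genes in general. Their median range was 0.87, beside 0.52 over all genes, and 12 of 65 had a range over 2 (18.5%, beside 6.49% of all genes). Epha3, a receptor of A-class ephrins, had the largest range, with 6.51, 3.13 and 7.21 in tumors 6, 7 and 8, followed by Plxnc1, Sema6d and Sema7a. Tumor 7 was the lowest of the pituitary tumors in 10 of these 12 genes, the other two being Slit2 and Efnb2 (83.3%, beside 65.3% of all genes with such a range), and in 33 of all 65 (50.8%, beside 27.5% of all genes). The astrocyte markers were above the array median for 9, 6 and 9 of 9 genes in tumors 6, 7 and 8, the oligodendrocyte markers for 8, 2 and 6 of 8, and the neuron markers for 9, 6 and 9 of 9. The part of these cells in the results was not tested.

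**Figure D4:**
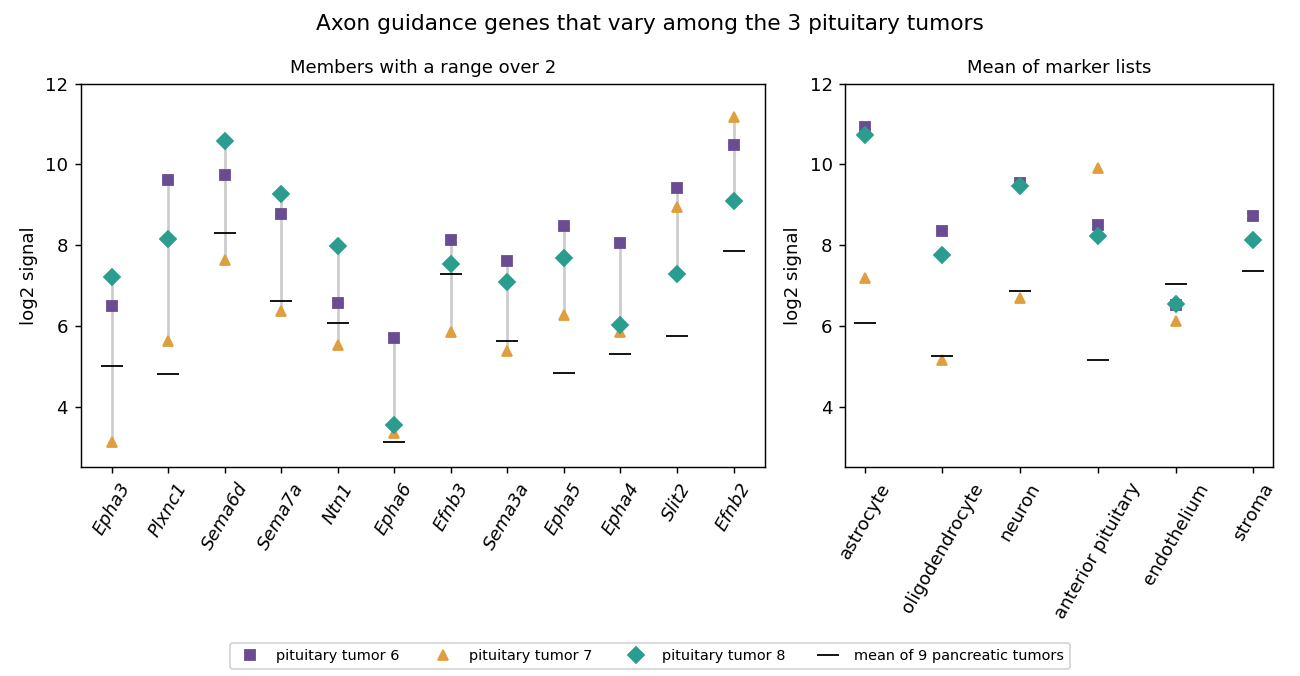
Log2 signal (y axis) in pituitary tumors 6 (squares), 7 (triangles) and 8 (diamonds) of the 12 guidance genes with a range over 2 (left) and mean log2 signal of 6 marker lists (right), with dashes for the mean of the 9 pancreatic tumors. Tumor 7 is lowest in 10 of the 12 genes and in the astrocyte, oligodendrocyte and neuron lists, and highest in the anterior pituitary list at 9.92.

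Within the 9 pancreatic tumors the guidance genes varied about as much as other genes. The median SD was 0.452, beside 0.430 over all genes, and 8 of 65 had an SD over 1 (12.3%, beside 11.6%). After Sema3c, the most variable were Epha3, Efna5, Efnb2, Sema4g and Robo1. Epha3 was 3.18 to 7.65, highest in pancreatic tumors 3 and 4, at 7.65 and 6.82, while the other 7 were at 5.12 or below. The mean over 9 acinar markers was also highest in these tumors, at 11.42 and 10.65 against 5.08 to 9.00 in the other pancreatic tumors, and its part was not tested. Efna5 was lowest in tumors 11 and 2, at 6.48 and 7.32, and 8.72 or more in the others. Sema4g, a membrane-bound semaphorin of class 4, was 9.71 in tumor 2 and 5.49 to 6.57 in the others, and Robo1 was also highest in tumor 2, at 8.56.

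Guidance receptors of blood vessels were set beside vessel markers, a choice made after their values were seen. The mean over 11 endothelial markers was 7.66 in pancreatic tumor 5 and 7.79 in tumor 9, against 6.07 to 7.34 elsewhere in the pancreas and 6.13 to 6.54 at the pituitary, and 1 of the 11 markers was higher in pancreatic tumors. Robo4, the Robo of endothelium, was also highest in these tumors, at 8.24 and 7.42, against 5.87 to 6.91 in the other pancreatic tumors. Nrp1 was highest in tumors 5 and 4, at 10.23 and 9.95, and 9.67 in tumor 9. Plxnd1, the plexin of vessels, was highest in tumors 5 and 11, at 7.72 and 7.37. Nrp2 and Ephb4 followed other orders, with Nrp2 highest in tumor 11, at 9.52, where the endothelial mean was 6.83, and Ephb4 highest in tumor 2, at 7.32, which had the lowest endothelial mean. The mean over 10 stroma markers ranged up to 8.39 in pancreatic tumors, from 6.19, and lay between 8.12 and 8.71 in pituitary tumors, with 2 of 10 higher in pituitary tumors. Leukocyte markers ranged from 6.21 to 8.16 over all tumors with 0 of 9 called by limma, and acinar markers in the pituitary tumors from 4.64 to 5.32 with 0 of 9 called. At an unadjusted p under 0.05, 0 leukocyte markers and 2 acinar markers passed, both higher in pancreatic tumors. The part of these cells in the site differences was not tested.

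**Figure D5:**
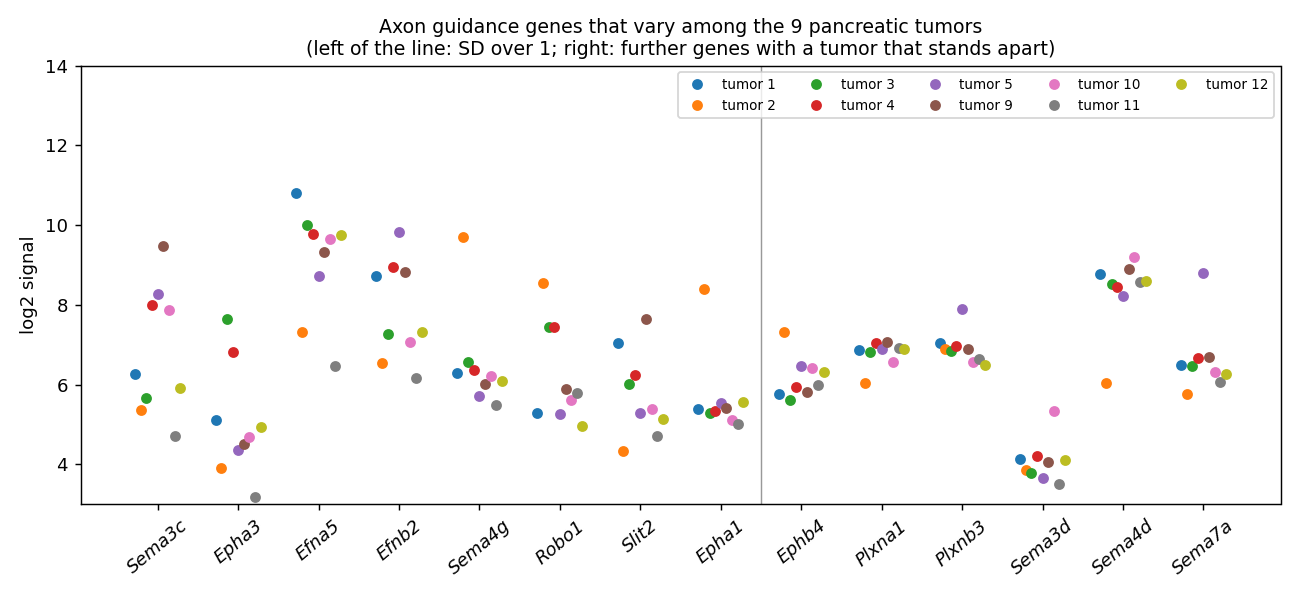
Log2 signal (y axis) of 14 guidance genes in each of the 9 pancreatic tumors (colors), with the 8 genes of SD over 1 left of the line and 6 further genes in which 1 tumor stands apart right of it. Tumor 2 is highest for Sema4g (9.71), Epha1 (8.39), Robo1 (8.56) and Ephb4 (7.32), and tumor 5 for Sema7a (8.79) and Plxnb3 (7.88).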

How the data were processed

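Total RNA of 12 tumors was hybridized to Affymetrix MG-430_2.0 arrays. Per the file deposited for the series, each value is a normalized log2 signal of a probe set in a tumor, made by the authors. Partek Genomics Suite is named in the study's methods (version not stated there) and RMA for another step, without saying which produced the deposited values. They were used without further normalization.

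Of 45101 probe sets, the control probe sets were left out and 45037 were tested. Symbols came from the platform annotation, with 1 symbol for 34945 probe sets, several for 932 and none for 9160. All 65 guidance genes matched a RefSeq table by Entrez identifier, and 0 symbols changed. The sites were compared by a linear model with moderated variances (limma 3.58.1, lmFit and eBayes, under R 4.3.3), with p-values adjusted after Benjamini-Hochberg over all probe sets and a threshold of 0.05. The fit was tested on simulated data. Tables were handled in Python 3.11.15 (pandas 2.3.3 with numpy 2.4.6) and figures drawn with matplotlib 3.10.9. The number of arrays limits the precision.

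The genes, marker lists, pairs and lists of other guidance genes were chosen with earlier results of these data known. The text names each guidance gene past the threshold, the largest difference of each family, the 6 largest SDs over the pancreatic and the 4 largest ranges over the pituitary tumors, partners of called genes and up to 6 called genes of each further list. Other genes are named after their values were seen. Alternatives were other normalizations, variance models, filters, thresholds and probe set rules, each tumor left out, and 3 settings that leave out groups of tumors.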

Additional observations from a re-analysis of the deposited data

Results flagged for a closer look

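In 8 of the 65 guidance genes 1 of the 9 pancreatic tumors lay farther from the rest than Dixon's test allows at the 5% level (12.3%, beside 16.2% of all genes). Chance alone marks about 1 in 20 groups. In 5 of the 8 genes the tumor was pancreatic tumor 2, which had the lowest endocrine pancreas and neuron marker means and the highest astrocyte marker mean of the pancreatic tumors (8.23, 5.21 and 7.43). The astrocyte mean rested mainly on Aldh1l1, Aqp4 and Slc1a2, at 12.17, 7.61 and 7.14 in tumor 2. Gfap and Fabp7 were also highest there, at 6.32 and 6.25. Slc1a3, Aldoc, Gja1 and S100b lay within the range of the other pancreatic tumors. Tumor 2 was highest for the Eph receptor Epha1 at 8.39, where the next tumor had 5.57, for Ephb4 at 7.32 (next 6.45) and for Sema4g at 9.71 (next 6.57). It was lowest for the semaphorin Sema4d at 6.05 (next 8.22) and the plexin Plxna1 at 6.03 (next 6.57). Without tumor 2, Epha1 passed the threshold as higher in pancreatic tumors, and the count in that direction was 6. Over all genes the share called in that direction also rose, from 1.63% to 2.76%.

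Pancreatic tumor 5, with the highest stroma marker mean of the pancreatic tumors (8.39), was highest for Sema7a at 8.79 (next 6.70) and for the plexin Plxnb3 at 7.88 (next 7.04). Without it, Plxnb3 and Efnb2 passed the threshold as higher in pituitary tumors, and the count in that direction was 8. Over all genes the share in that direction was 4.04%, beside 4.29% with all tumors. Pancreatic tumor 10 was highest for Sema3d at 5.33 (next 4.22), below its array median of 5.47. Which cells carried the marker transcripts in tumors 2 and 5, and their part in these values, was not tested.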

How the results depend on the processing

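The counts of called guidance genes depended on the settings, and Sema5a and Sema4a passed in every one. In place of 5 genes higher in pancreatic tumors, 3 passed with a trended and robust variance (1.56% of all genes) and 3 with an unmoderated test (1.21%, Plxna4os1 gained). With a difference over 1 required as well, 2 passed and all 6 pituitary calls stayed, and no share of all genes is given here for that rule. Without pancreatic tumors 10, 11 and 12, 1 passed (0.698%), and without 2, 3 and 4 there were 3 (1.89%). In place of 6 higher in pituitary tumors, 2 passed among probe sets above the median, where 47 guidance genes were tested (4.66% of all genes tested). Epha5, Epha7, Ephb1 and Plxnc1 were removed by that filter, which uses the mean over all 12 tumors, and so were not tested. Without tumors 10, 11 and 12, 1 passed (1.64%), and calls fell over all genes without these tumors too. Array weights gave 13, with Efna3, Efnb2, Epha4, Epha6, Ephb6, Plxnb3 and Sema7a gained (8.77% of all genes). With 1 tumor left out the counts were 1 to 6 for pancreatic and 1 to 8 for pituitary tumors, lowest without pituitary tumor 6 (1 and 1, beside 0.632% and 1.84% of all genes), and the 1 for pancreatic tumors also without tumor 8. The median difference of the guidance genes moved from -0.06 to 0.14 without tumors 6 and 8, while that of all genes moved from 0.04 to -0.01. Of the 21 genes of other guidance families, the 5 higher in pituitary tumors became 3 above the median (4.66% of all genes tested). Nrcam and Chl1 were removed by that filter and not tested. Without tumors 10, 11 and 12 the count was 2 (1.64%), and with 1 tumor left out it was 3 to 8 (1.84% to 5.45% of all genes). The 4 effectors became 7 with array weights, 2 without 10, 11 and 12, 0 without 6 and 8, and 2 to 5 with 1 tumor left out. Over all genes, the share called higher in pituitary tumors was 8.77% with array weights and 1.64% without 10, 11 and 12, beside 4.29% in the main setting. With 1 tumor left out it was 1.84% to 5.45%. Calls also fell over all genes without 6 and 8, so the 0 there is no result about the effectors alone. The settings that leave out tumors have fewer samples, and with 1 pituitary tumor its spread is taken from the pancreatic tumors. The causes of the other shifts were not tested. Quantile normalization and median centring kept all 6 pituitary calls and lost Robo3. No called gene changed direction in any setting. No paired analysis was possible because the labels do not say which tumors share a mouse. With 3 pituitary arrays, genes near background limit what can be seen.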
